A study of Homo sapiens with 6 samples.

Results

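The 35 genes described here are 19 enzymes of glycolysis and its control, 14 other reported targets of the hypoxia-inducible factors (HIF), and the HIF alpha subunit genes HIF1A and EPAS1. They were taken by gene symbol from a table of 30493 listed genes, and each symbol matched 1 row. The split into enzymes, other targets and HIF subunits was made by known role. The genes were measured by RNA-seq in 3 libraries of A549 cells labelled as STAU1 knockdown and in 3 control libraries of the same line. A549 is a human lung adenocarcinoma cell line. STAU1 encodes Staufen, a protein that binds double-stranded RNA and acts in mRNA transport, translation and decay. The knockdown columns carry the prefix si, and the labels give the genotype of the control samples as a control plasmid. The labels name no clone, oxygen level or time after knockdown, and they do not tell whether each library is its own culture. P-values therefore cover only the variation seen among these 6 libraries, part or all of which may be technical.

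Glycolysis splits glucose into pyruvate in the cytosol. Its preparatory steps spend ATP to phosphorylate and cleave the sugar, its later steps recover ATP and NADH, and lactate dehydrogenase turns pyruvate into lactate. HIF is a dimer of an oxygen-regulated alpha subunit and a constant beta subunit. When oxygen is short the alpha subunits escape hydroxylation by the EGLN enzymes and degradation through VHL, and HIF raises transcription of most glycolytic enzymes together with genes for glucose and lactate transport, pH control, mitophagy and angiogenesis. Many of these genes are also expressed in tumour lines at normal oxygen.

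Libraries held 30354219 to 35431441 counts, and 17089 genes had enough counts to be tested, among them all 35 members. STAU1 was at 16.02, 15.7 and 14.6 CPM (TMM-scaled counts relative to library size) in knockdown libraries and at 120, 125 and 117 CPM in control libraries. Its log2 fold change, knockdown over control, was -2.97 (SE 0.04). Mitochondrially encoded genes took 15.8% to 16.1% of the counts in knockdown libraries and 17.3% to 17.9% in control libraries. Of the 10 markers of A549 and lung epithelium, KRT8, KRT18, AKR1B10, AKR1C1 and NQO1 each averaged at least 2104 CPM in both groups, while NKX2-1 had 2 to 3 counts in knockdown and 6 to 9 counts in control libraries. The summed level of the 9 tested epithelial markers was 15222 to 15777 CPM in knockdown libraries and 18422 to 18738 CPM in control libraries. Of these 9, 5 were lower, namely the abundant markers listed above, and 2 were higher. The 2 were CDH1 (log2 fold change 0.50, SE 0.03) and EPCAM (0.22, SE 0.04), and KRT19 and FOXA2 were not called. Of 7 fibroblast markers 6 were listed and 4 tested. The 4 tested summed to 14.7 to 16.8 CPM in knockdown and 9.86 to 10.5 CPM in control libraries. Of 4 endothelial markers 2 were tested, and they summed to 1.66 to 2.46 CPM in knockdown and 1.00 to 1.27 CPM in control libraries. The immune markers PTPRC and CD3E were not listed, and the other 3 summed to 16.1 to 18.5 CPM in knockdown and 13.3 to 14.9 CPM in control libraries. No erythroid marker reached the tested set. In bulk RNA fewer cells of a type and less RNA per cell cannot be told apart. The part of these shifts in the results on glycolytic and hypoxia genes was not tested.

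Most glycolytic enzymes were lower in the knockdown libraries, and the fall covered each of the 9 members from triose phosphate isomerase to lactate dehydrogenase. Of the 19 enzymes, 14 fell, 1 rose and 4 did not pass the test, with a median log2 fold change of -0.38 and a range of -0.60 to 0.31. LDHA, which makes lactate from pyruvate, fell by 31.5%, and PGK1, the first ATP-producing enzyme of the pathway, fell by 30.4%. Most of the other hypoxia targets were lower too, with a smaller median change. Of the 14 targets 10 fell, 1 rose and 3 did not pass the test. Their median was -0.20 and their range -0.77 to 0.16. ANGPTL4 (-0.77, SE 0.08) and BNIP3 (-0.69, SE 0.03) had larger fitted falls than any enzyme, the nearest being ALDOC (-0.60, SE 0.11), whereas VEGFA, ADM and KDM3A, also classical HIF targets, did not pass the test.

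Over all tested genes 44.2% were called at a Benjamini-Hochberg adjusted p under 0.05 (quasi-likelihood test, edgeR), 22.0% lower and 22.2% higher, and the median log2 fold change was -0.0004 with a middle range of -0.17 to 0.18. Among the 35 members 25 were lower, 3 higher and 7 not called, with a median of -0.34. Of all tested genes 7.81% were called with a log2 fold change of -0.3 or less, while 12 of the 19 enzymes and 6 of the 14 other targets were. The knockdown and control libraries did not overlap in CPM for 51.4% of all tested genes. For 26 members every knockdown library was below every control library, for 4 every knockdown library was above, and for 5 the groups overlapped.

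**Figure D1:**
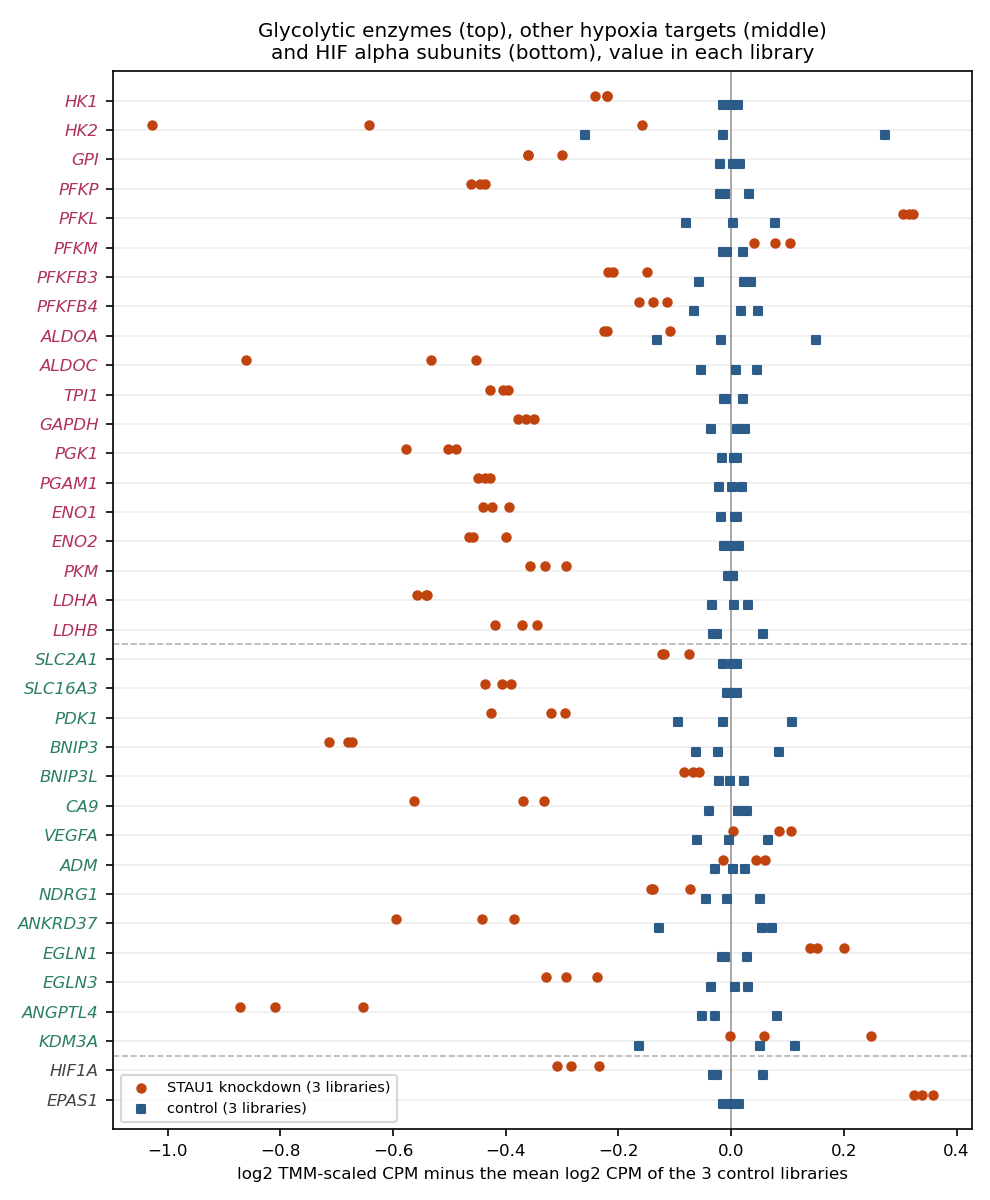
Each point is 1 library, and the horizontal axis is its log2 TMM-scaled CPM minus the mean log2 CPM of the 3 control libraries, for knockdown libraries (circles) and control libraries (squares). The enzymes from TPI1 to LDHB all have their 3 knockdown libraries left of their 3 control libraries, while the other hypoxia targets lie on both sides of 0.

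**Figure D2:**
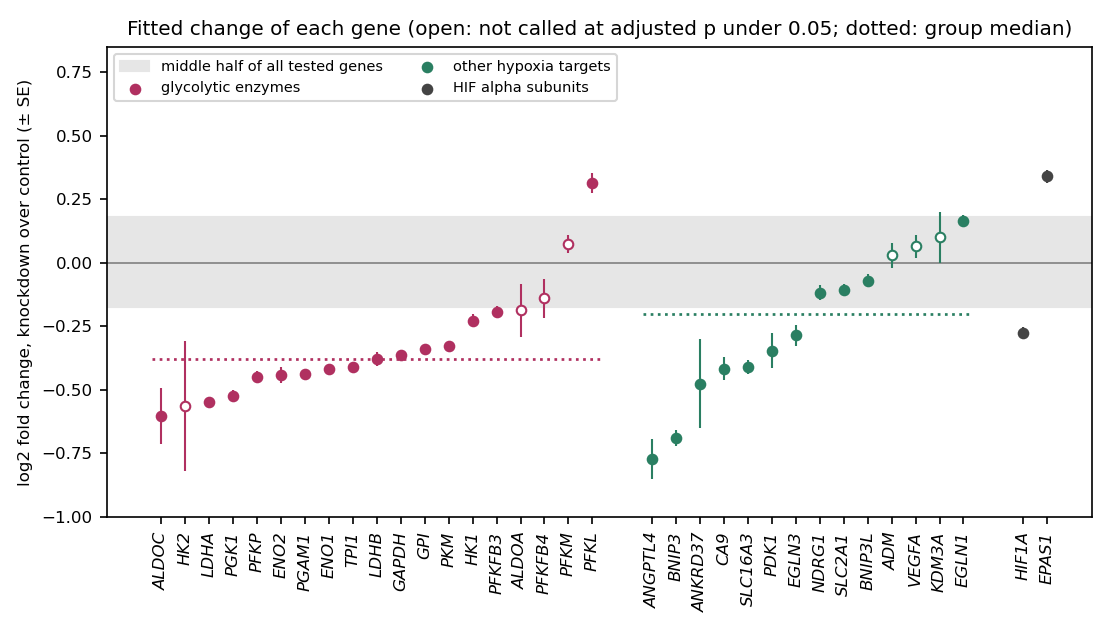
The vertical axis is the fitted log2 fold change of each member, knockdown over control, with its standard error; filled points passed an adjusted p of 0.05, dotted lines are the medians of -0.38 for enzymes and -0.20 for other hypoxia targets, and the grey band is the middle range of all tested genes. PFKL, EGLN1 and EPAS1 are the filled points above 0.

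Abundant genes as a whole leaned towards lower values. Of the 1709 tested genes with the highest mean log2 CPM (at least 6.56), 46.9% were called lower (801 genes) and 502 were higher, with a median log2 fold change of -0.05 and a middle range of -0.16 to 0.09. These genes included 20 of the 35 members, of which 18 were lower and 2 (EGLN1 and EPAS1) higher, with a median of -0.35. The remaining 15 members, with lower levels, gave 7 falls, 1 rise (PFKL) and 7 without a call. Over all tested genes of any level 22.0% were lower and 22.2% higher.

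**Figure D3:**
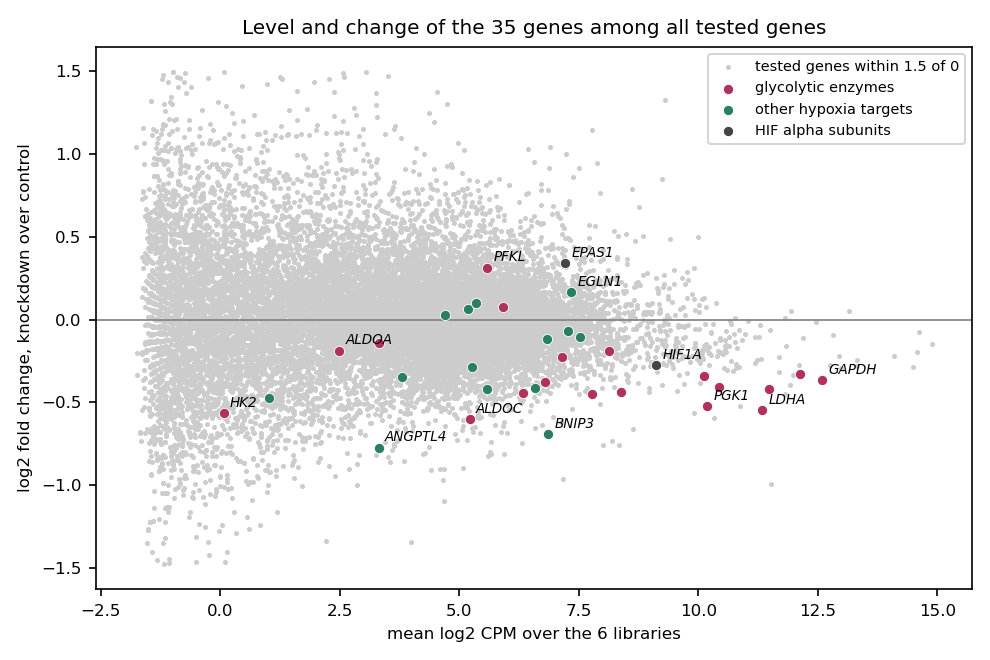
The horizontal axis is the mean log2 CPM over the 6 libraries and the vertical axis the log2 fold change, knockdown over control; grey points are the other tested genes within 1.5 of 0 and coloured points the 35 members. The abundant enzymes GAPDH, LDHA and PGK1 lie at -0.36, -0.55 and -0.52. The middle range of the 1709 most abundant tested genes is -0.16 to 0.09.

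The groups can also be followed library by library. The median enzyme lay at -0.371, -0.420 and -0.344 on the log2 scale relative to the control mean in the 3 knockdown libraries, and at -0.011, 0.011 and 0.003 in the 3 control libraries. The median of the other hypoxia targets lay at -0.234, -0.217 and -0.161 in knockdown libraries and at -0.005, 0.017 and -0.013 in control libraries. In each of the 3 knockdown libraries the enzymes were thus displaced further than the other targets. The 19 enzymes took 1.87%, 1.84% and 1.88% of all counts in knockdown libraries and 2.30%, 2.35% and 2.32% in control libraries. The summed level of the 14 other targets was 974, 976 and 995 CPM in knockdown libraries and 1095, 1114 and 1091 CPM in control libraries. No test of the 2 medians against each other was made, because genes are not replicates of a condition.

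HIF recognises a short core, ACGTG or GCGTG, in the promoters and enhancers of its targets. The sequences below are the RefSeq promoter windows (GRCh38.p14, 250 bases before to 50 after the transcript start) of the 3 called enzymes with the largest falls and of the hypoxia targets with the largest fall and the largest rise. They are shown so that the promoters of strongly lowered genes can be set beside that of a hypoxia target that rose. Each is printed 5′ to 3′ on the strand of its gene, and capitals mark ACGTG or GCGTG on either strand (CACGT and CACGC on the strand opposite to the core).
ALDOC: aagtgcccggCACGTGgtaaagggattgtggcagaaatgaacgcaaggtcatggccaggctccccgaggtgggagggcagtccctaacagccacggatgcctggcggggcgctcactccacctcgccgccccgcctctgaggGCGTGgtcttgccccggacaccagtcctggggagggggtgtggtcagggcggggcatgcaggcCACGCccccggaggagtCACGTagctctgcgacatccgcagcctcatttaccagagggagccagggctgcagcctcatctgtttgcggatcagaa
LDHA: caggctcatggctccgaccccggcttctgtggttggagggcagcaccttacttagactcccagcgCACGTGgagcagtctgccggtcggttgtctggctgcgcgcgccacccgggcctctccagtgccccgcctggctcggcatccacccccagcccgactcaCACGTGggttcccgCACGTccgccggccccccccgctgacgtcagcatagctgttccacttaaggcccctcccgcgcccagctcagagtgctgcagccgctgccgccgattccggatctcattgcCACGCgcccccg
PGK1: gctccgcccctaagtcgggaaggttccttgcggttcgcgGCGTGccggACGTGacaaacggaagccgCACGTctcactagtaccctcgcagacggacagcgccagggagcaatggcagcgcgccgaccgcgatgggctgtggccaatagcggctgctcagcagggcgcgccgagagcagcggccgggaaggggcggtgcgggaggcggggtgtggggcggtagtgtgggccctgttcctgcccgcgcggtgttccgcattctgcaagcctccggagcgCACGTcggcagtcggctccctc
ANGPTL4: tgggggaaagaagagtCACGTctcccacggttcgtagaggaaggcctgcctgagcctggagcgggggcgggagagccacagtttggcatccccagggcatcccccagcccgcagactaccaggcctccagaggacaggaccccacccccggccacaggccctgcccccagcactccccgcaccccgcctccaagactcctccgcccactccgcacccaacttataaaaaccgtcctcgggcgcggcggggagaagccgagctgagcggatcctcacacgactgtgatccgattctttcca
EGLN1: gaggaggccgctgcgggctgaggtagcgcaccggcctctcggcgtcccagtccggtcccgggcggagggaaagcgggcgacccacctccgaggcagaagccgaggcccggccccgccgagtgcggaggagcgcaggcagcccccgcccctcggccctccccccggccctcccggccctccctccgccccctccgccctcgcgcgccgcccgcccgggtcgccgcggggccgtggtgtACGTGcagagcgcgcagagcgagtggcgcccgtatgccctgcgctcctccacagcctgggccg
The windows are chr17:28576846-28577145 (minus strand) for ALDOC, chr11:18394313-18394612 (plus) for LDHA, chrX:78103998-78104297 (plus) for PGK1, chr19:8363905-8364204 (plus) for ANGPTL4 and chr1:231422238-231422537 (minus) for EGLN1. LDHA has a second window in the table that is not shown, and in GENCODE 29 the windows of ALDOC, PGK1, ANGPTL4 and EGLN1 lie inside the annotated gene.

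The core occurred 6 times in the LDHA window, 5 times in ALDOC, 4 times in PGK1, and 1 time each in ANGPTL4 and EGLN1, where CACGTG counts on both strands. CACGTG is also the E-box bound by MYC and related factors. In the LDHA window CACGTG began 185 and 87 bases before the start, given as -185 and -87, and a further CACGT began at -73. ALDOC, the aldolase gene with the largest fall of any enzyme, held CACGTG at -240, and PGK1 held ACGTG at -202. The single match of ANGPTL4, which fell, began at -234, and that of EGLN1, which rose, at -13. The LDHA window not shown held 1 match and no ACGTG. Among members not printed, BNIP3, which fell, held 6 matches, and PGAM1, which also fell, held none. HK2, which was not called, held 3 and 6 in its windows. Whether the number of matches goes with the change was not tested. Over the 60 windows of the 32 members with an entry, several for some genes, 38.3% held ACGTG and 68.3% held either core. For enzymes these shares were 40.0% and 65.0% of 40 windows, and for the other hypoxia targets 41.2% and 76.5% of 17 windows. Of the 16641 windows of all tested genes, 25.1% held ACGTG and 59.6% either core. Median GC content was 68.3% in the windows of members and 64.7% in those of all tested genes. A match is a description of the letters and not of binding, and enhancers lie outside these windows.

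The later steps and lactate formation fell together. All 9 members from TPI1 to LDHB fell, with a median log2 fold change of -0.42 and a range of -0.55 to -0.33. TPI1, which interconverts the triose phosphates, was at 1196, 1169 and 1188 CPM in knockdown libraries and 1561, 1597 and 1564 CPM in control libraries. The groups stood well apart (log2 fold change -0.41, SE 0.02, adjusted p = 2.1e-22, edgeR). GAPDH, the NADH-producing dehydrogenase often used as a loading control, was at 5394, 5342 and 5444 CPM in knockdown libraries and 6768, 7063 and 6991 CPM in control libraries. Every knockdown library lay below every control library (-0.36, SE 0.02, adjusted p = 1.0e-20). PGK1, phosphoglycerate kinase, was at 966, 917 and 976 CPM in knockdown libraries and 1374, 1379.7 and 1354 CPM in control libraries. Its fall was the deepest of the pathway after ALDOC and LDHA among called enzymes (-0.52, SE 0.02, adjusted p = 3.0e-25).

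PGAM1, phosphoglycerate mutase, was at 283, 279.6 and 282 CPM in knockdown libraries and 382, 387 and 376 CPM in control libraries. The 3 knockdown values lay within a few CPM of each other, below all controls (-0.44, SE 0.02). ENO1, the ubiquitous enolase, was at 2421, 2395 and 2472 CPM in knockdown libraries and 3212, 3266 and 3273 CPM in control libraries. ENO2, the neuronal enolase, was far less abundant, at 70.6, 67.8 and 67.4 CPM in knockdown libraries and 92.3, 94.1 and 93.1 CPM in control libraries. Both enolases fell by a like amount (-0.42 and -0.44, SE 0.02 and 0.03). PKM, pyruvate kinase, was at 3953, 3879.6 and 4056 CPM in knockdown libraries and 4977, 4979 and 4950.3 CPM in control libraries. It had the smallest fall of these steps (-0.33, SE 0.02, adjusted p = 5.7e-19).

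LDHA, the lactate dehydrogenase subunit that favours lactate formation, was at 2108, 2083 and 2105 CPM in knockdown libraries and 2993, 3128 and 3075 CPM in control libraries. The means were 2099 ± 13.4 and 3065 ± 68.4 CPM (SD, n = 3 each), and the fitted change was -0.55 (SE 0.02, adjusted p = 3.7e-27). LDHB, the subunit that favours pyruvate formation, was at 96.5, 93.3 and 98.3 CPM in knockdown libraries and 123, 122 and 129.8 CPM in control libraries. It also fell (-0.38, SE 0.03). The 9 falls kept their call under each of the 16 alternative settings tried.

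GAPDH, TPI1 and ENO2 are neighbours on chromosome 12 (chr12:6533927-6538374, chr12:6867119-6870948 and chr12:6913745-6923698, plus strand, GRCh38, GENCODE 29). In the 389.8 kb from the start of GAPDH to the end of ENO2, 29 genes were tested. With these 3 included, 12 were lower, 1 higher and 16 not called, and the median was -0.12. Over all tested genes 22.0% were lower and 22.2% higher, with a median of -0.0004. The part of this neighbourhood in the falls of GAPDH, TPI1 and ENO2 was not tested. PGK1 (chrX:77910739-78129296), LDHA (chr11:18394388-18408425), ENO1 (chr1:8861000-8879250, minus strand), PGAM1 (chr10:97426160-97433441) and PKM (chr15:72199029-72231822, minus strand) lie on other chromosomes.

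In the earlier steps the calls differed between related genes. The division into earlier and later steps was not among the planned comparisons. Of the 10 members from hexokinase to aldolase, with the PFKFB enzymes, 5 fell, 1 rose and 4 did not pass the test, and the median was -0.21. The most abundant hexokinase and phosphofructokinase members, HK1 and PFKP, fell, as did GPI. ALDOA was not called, but fell by 0.30 with its overlapping gene summed, as given below. HK1, the main hexokinase here, fell modestly (-0.23, SE 0.02, adjusted p = 1.1e-10). HK2, a hexokinase raised in many tumours, had 18 to 38 counts per knockdown library and 30 to 44 per control library, and its change of -0.56 (SE 0.26) did not pass the test (adjusted p = 0.070). Without knockdown replicate 3 it was -0.84 with an adjusted p of 0.0161, and over the 16 alternatives the adjusted p ran from 0.0161 to 0.287. GPI, which converts glucose phosphate to fructose phosphate, was at 961, 961 and 1002 CPM in knockdown libraries and 1218, 1248 and 1236 CPM in control libraries. The groups did not overlap, and it fell (-0.34, SE 0.02).

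The 3 phosphofructokinase genes, whose products form the tetramer that commits sugar to glycolysis, did not change alike. PFKP, the platelet-type subunit (chr10:3066333-3137712, plus strand, GRCh38), was at 185, 183 and 186 CPM in knockdown libraries and 250.3, 249 and 258 CPM in control libraries. PFKL, the liver-type subunit (chr21:44300051-44327376, plus strand), was at 53.1, 52.5 and 52.9 CPM in knockdown libraries and 42.5, 44.8 and 40.2 CPM in control libraries. PFKP fell (-0.45, SE 0.02, adjusted p = 1.2e-21) and PFKL rose (0.31, SE 0.04, adjusted p = 4.8e-09). PFKM, the muscle-type subunit, had a change of 0.08 (SE 0.03) that missed the threshold (adjusted p = 0.074). With total-count scaling PFKM was 0.15, called higher, and its adjusted p over the alternatives ran from 2.5e-04 to 0.246.

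PFKFB3 and PFKFB4 are bifunctional enzymes that make and degrade an allosteric activator of phosphofructokinase. PFKFB3 fell slightly (-0.19, SE 0.02, adjusted p = 4.5e-09), though its -0.08 with log2(FPKM + 1) was not called (adjusted p = 0.0939, with 1.1e-12 to 0.0939 over the alternatives), and PFKFB4 had a change of -0.14 (SE 0.08, adjusted p = 0.14). ALDOC, brain-type aldolase, was at 31.1, 24.7 and 32.8 CPM in knockdown libraries and 46.3, 43.3 and 45.1 CPM in control libraries. Knockdown replicate 2 was the lowest, and every knockdown library lay below every control library. The fitted change of ALDOC, -0.60 (SE 0.11, adjusted p = 0.0083), had a larger error than that of the abundant enzymes.

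ALDOA (chr16:30064164-30070457, plus strand, GRCh38), usually the dominant aldolase outside liver and brain, held only 158 to 198 counts per knockdown library and 165 to 209 per control library, and its change of -0.19 (SE 0.11) did not pass the test (adjusted p = 0.15). In GENCODE 29, 42.3% of its exon bases also belong to a second protein-coding gene on the same strand, ENSG00000285043. That gene had 43306, 43579 and 51812 counts in knockdown libraries and 52534, 53493 and 54851 counts in control libraries, and it fell (-0.30, SE 0.02, adjusted p = 4.3e-17). LDHB likewise shares 33.4% of its exon bases with ENSG00000285854 on the same strand. That gene had 33477, 34663 and 38986 counts in knockdown libraries and 40706, 39751 and 41221 counts in control libraries, and it fell (-0.27, SE 0.02). The CPM of ALDOA and LDHB in this table are therefore not the full level of these enzymes.

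When each enzyme was summed with the gene that overlaps it, an alternative chosen after the data were seen, ALDOA fell by 0.30 (SE 0.02, adjusted p = 4.7e-17), LDHB by 0.28 and GAPDH by 0.38 on the log2 scale. The summed ALDOA counts thus gave 15 enzymes that fell in place of 14. GAPDH shares 14.2% of its exon bases with ENSG00000269968 on the opposite strand, which had 11399, 10269 and 8565 counts in knockdown libraries and 15330, 15174 and 14802 counts in control libraries. The sources used here do not say whether counting used the strand, so reads of such pairs may not be separated. The same holds for CA9, which shares 38.5% of its exon bases with ARHGEF39 on the opposite strand, and for ANKRD37, which shares 35.2% with UFSP2. ARHGEF39 had 691, 650 and 641 counts in knockdown libraries and 868, 908 and 913 counts in control libraries. UFSP2 had 477, 486 and 569 counts in knockdown libraries and 450, 475 and 449 counts in control libraries. CA9 and ANKRD37 were not summed with these genes. Processed pseudogenes named after a member held at most 0.297% of their parent's counts (PGAM1).

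The other hypoxia targets include transporters and metabolic switches. SLC16A3, the MCT4 carrier that exports lactate, was at 82.2, 80.5 and 83.1 CPM in knockdown libraries and 108, 109.7 and 109 CPM in control libraries. The groups were far apart relative to their spread (-0.41, SE 0.03, adjusted p = 8.1e-17). PDK1, the kinase that restrains pyruvate dehydrogenase, was at 11.6, 12.5 and 12.7 CPM in knockdown libraries and 15.4, 16.8 and 14.6 CPM in control libraries. It fell (-0.35, SE 0.07, adjusted p = 3.3e-05), but with log2(FPKM + 1) it was -0.11 and not called (adjusted p = 0.0837, with 6.4e-06 to 0.090 over the alternatives). SLC2A1, the GLUT1 glucose transporter, fell only slightly (-0.11, SE 0.02, adjusted p = 2.1e-04). Its deposited FPKM were 23.7 ± 0.941 in knockdown and 23.6 ± 0.323 in control libraries (SD, n = 3 each), with a change of 0.0043 on the log2(FPKM + 1) scale, and its adjusted p over the alternatives ran from 8.9e-05 to 0.935.

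The mitophagy receptors BNIP3 and BNIP3L differed. BNIP3 (chr10:131966455-131982013, minus strand, GRCh38) was at 87.3, 89.4 and 89.8 CPM in knockdown libraries and 137, 152 and 141 CPM in control libraries. It fell by 38.0%, to 88.8 ± 1.35 CPM in knockdown libraries, against 143 ± 7.66 CPM in control libraries (SD, n = 3 each; -0.69, SE 0.03, adjusted p = 5.0e-22). BNIP3L was near its control level at 151, 152 and 149.6 CPM in knockdown libraries and 158, 161 and 156 CPM in control libraries. Its change of -0.07 (SE 0.02, adjusted p = 0.017) was called, yet turned to 0.0075 with total-count scaling and to 0.04 with FPKM, and it missed the threshold without control replicate 2, without knockdown replicate 1 and without knockdown replicate 3 (adjusted p 0.0558 to 0.0823, with 0.0146 to 0.835 over all alternatives).

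CA9, a membrane carbonic anhydrase that handles acid outside the cell, was at 42.1, 36.8 and 43.1 CPM in knockdown libraries and 52.9, 54.7 and 55.4 CPM in control libraries. It fell in every knockdown library relative to every control library (-0.42, SE 0.04, adjusted p = 7.9e-10). ANGPTL4, a secreted inhibitor of lipoprotein lipase, was at 7.13, 6.83 and 7.94 CPM in knockdown libraries and 12.2, 12.1 and 13.2 CPM in control libraries. It had the largest fitted fall of the 35 genes (-0.77, SE 0.08, adjusted p = 2.1e-11). ANKRD37, an ankyrin repeat gene induced by HIF, was at 1.76, 1.69 and 1.52 CPM in knockdown libraries and 2.42, 2.39 and 2.10 CPM in control libraries. Its change of -0.48 (SE 0.17, adjusted p = 0.023) rests on few counts and missed the threshold without control replicate 1, without control replicate 2 and without knockdown replicate 3 (adjusted p 0.0716 to 0.0796, with 0.0218 to 0.0898 over all alternatives).

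NDRG1, a stress-responsive gene, fell slightly (-0.12, SE 0.03, adjusted p = 6.6e-04), but its change was -0.0069 with log2(FPKM + 1) and not called there (adjusted p = 0.911, with 1.4e-04 to 0.911 over the alternatives). The angiogenic factor VEGFA (0.06, SE 0.04, adjusted p = 0.24), the vasodilator peptide ADM (0.03, SE 0.05, adjusted p = 0.66) and the histone demethylase KDM3A (0.10, SE 0.10, adjusted p = 0.49) had overlapping groups. VEGFA was 0.14 and called higher with total-count scaling, with an adjusted p of 0.00634 to 0.616 over the alternatives. ADM was 0.13 and called higher with log2(FPKM + 1) (adjusted p = 0.0121, with 0.0121 to 0.876 over the alternatives), and KDM3A was 0.10 and called higher with the replicate block (adjusted p = 0.0452, with 0.0452 to 0.815 over the alternatives), but 0.02 without control replicate 3 or without knockdown replicate 2, and 0.15 without control replicate 2 or without knockdown replicate 3, not called in any of these. The prolyl hydroxylases that mark HIF alpha for degradation moved in opposite directions. EGLN1 (PHD2) was at 168, 169.6 and 175 CPM in knockdown libraries and 151, 151 and 155 CPM in control libraries, and EGLN3 (PHD3) was at 33.7, 34.5 and 35.9 CPM in knockdown libraries and 41.3, 43.2 and 42.5 CPM in control libraries. EGLN1 rose (0.16, SE 0.02, adjusted p = 2.3e-07) and EGLN3 fell (-0.29, SE 0.04, adjusted p = 1.5e-07).

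The transcripts of the HIF alpha subunits changed in opposite directions. HIF1A (chr14:61695513-61748259, plus strand, GRCh38) was at 491, 517 and 499.7 CPM in knockdown libraries and 595, 598 and 633 CPM in control libraries. EPAS1, which encodes HIF-2 alpha (chr2:46293667-46386703, plus strand), was at 165, 164 and 167 CPM in knockdown libraries and 129, 131 and 132 CPM in control libraries. HIF1A fell by 17.4% (-0.28, SE 0.02, adjusted p = 2.4e-13), and EPAS1 was 26.6% higher (0.34, SE 0.02, adjusted p = 3.1e-16). Per length, HIF1A remained the more abundant, at 86.0 ± 2.87 FPKM in knockdown and 96.5 ± 3.76 FPKM in control libraries, against 20.0 ± 0.624 FPKM in knockdown and 14.6 ± 0.187 FPKM in control libraries for EPAS1 (SD, n = 3 each). HIF alpha protein is set largely by its degradation, which RNA-seq does not measure.

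Per length, on the FPKM scale as deposited, the enzymes spanned 4 orders of magnitude in level. GAPDH was at 1984 ± 57.1 FPKM in knockdown and 2365 ± 50.5 FPKM in control libraries (SD, n = 3 each) and ranked 17 among tested genes by its control level. ENO1, TPI1, PKM and LDHA followed at 306 to 410.4 FPKM in knockdown and 414 to 509 FPKM in control libraries, and HK2 was lowest at 0.117 FPKM in knockdown and 0.163 FPKM in control libraries. BNIP3L was the most abundant of the other hypoxia targets in both groups, at 32.1 FPKM in knockdown and 31.2 FPKM in control libraries. The FPKM of ALDOA and LDHB carry the limit on overlapping genes given above.

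**Figure D4:**
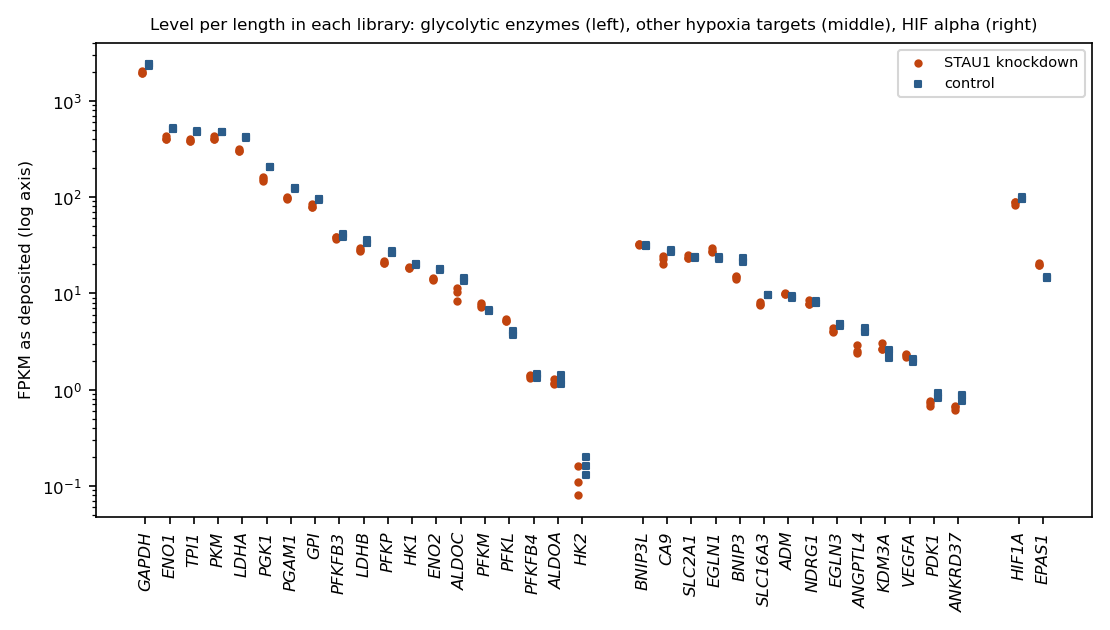
The vertical axis is the deposited FPKM on a log scale, with 1 point per library, for knockdown (circles) and control libraries (squares), ordered by level within the enzymes, the other hypoxia targets and the HIF alpha subunits. The levels run from GAPDH at 1984 FPKM in knockdown libraries to HK2 at 0.117 FPKM in knockdown libraries, and differences between genes far exceed those between groups.

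Ratios within a library compare related genes with no influence of scaling. In 8 pairs, the log2 ratio of TMM-scaled CPM was compared between groups with a two-sided exact permutation test of 3 against 3 libraries, which cannot go below p = 0.10. PFKP to PFKL had a log2 ratio of 1.81 ± 0.01 in knockdown and 2.57 ± 0.11 in control libraries, a difference of -0.76. BNIP3 to BNIP3L was at -0.77 ± 0.03 in knockdown and -0.15 ± 0.06 in control libraries, a difference of -0.62. EGLN3 to EGLN1 was at -2.30 ± 0.02 in knockdown and -1.85 ± 0.04 in control libraries, a difference of -0.45. LDHA to LDHB was at 4.45 ± 0.03 in knockdown and 4.62 ± 0.06 in control libraries, a difference of -0.17, or -0.27 with the overlapping gene summed into LDHB.

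These 4 pairs and ALDOC to ALDOA (-0.43, and -0.31 with the overlapping gene summed into ALDOA) had groups that did not overlap, each at the smallest exact p of 0.10 and 0.16 after adjustment over the 8 pairs. With the overlapping genes summed, the LDHA to LDHB log2 ratio itself was 0.84 in knockdown and 1.10 in control libraries. HK2 to HK1 (-0.38, exact p = 0.30; -0.17 without knockdown replicate 1, -0.62 without knockdown replicate 3 and -0.25 without control replicate 1), ENO2 to ENO1 (-0.02, exact p = 0.60) and PFKFB4 to PFKFB3 (0.05, exact p = 0.70) had overlapping groups.

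**Figure D5:**
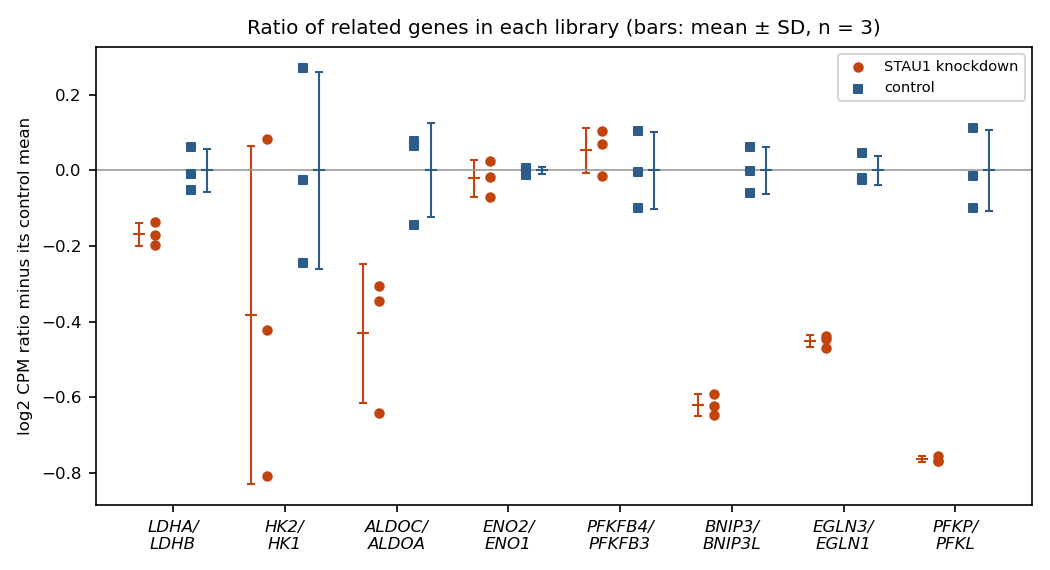
The vertical axis is the log2 ratio of 2 related genes in each library minus the mean of the control libraries, with bars for the mean ± SD of 3 libraries. The PFKP to PFKL, BNIP3 to BNIP3L, EGLN3 to EGLN1, LDHA to LDHB and ALDOC to ALDOA ratios lie lower in all 3 knockdown libraries. For ENO2 to ENO1 the knockdown libraries lie on both sides of the control libraries.

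Lists of other genes of these pathways had medians nearer to 0 than the 19 enzymes. Members and lists were chosen with earlier results of these data known, so this contrast is only a description. The counts of these lists stand beside 44.2% of all tested genes called, 22.0% lower and 22.2% higher. Of 25 other glycolysis and lactate genes 14 were tested. Among these 14, 7 fell, 2 rose and 5 did not pass the test, with a median of -0.10. The falls with the smallest adjusted p were PGAM5 (-0.38, SE 0.03), a mitochondrial phosphatase despite its name, BSG (-0.14, SE 0.02), the basigin partner of lactate carriers, and ENO3 (-0.39, SE 0.05), the muscle enolase. HKDC1, a hexokinase-domain enzyme, rose to 68.9 ± 1.35 CPM in knockdown libraries, against 58.4 ± 0.710 CPM in control libraries (SD, n = 3 each; 0.24, SE 0.03). SLC16A7, a monocarboxylate carrier, also rose (0.24, SE 0.10, adjusted p = 0.043). Its call was lost when any library other than control replicate 1 was left out (adjusted p 0.0528 to 0.188), and its adjusted p over all alternatives ran from 0.00619 to 0.188.

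Genes of pyruvate entry into mitochondria and of the pentose phosphate pathway gave 10 falls, 4 rises and 5 without a call among 19, with a median of -0.11. The pyruvate dehydrogenase subunits PDHA1 (-0.21, SE 0.03) and PDHB (-0.19, SE 0.03) fell. With log2(FPKM + 1) PDHA1 (-0.10), PDHB (-0.08) and the BSG gene named above (-0.03) were not called. The pyruvate dehydrogenase phosphatase PDP1 (0.42, SE 0.08), pyruvate carboxylase PC (0.28, SE 0.04) and the kinase PDK4 (0.11, SE 0.03) rose.

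A further 34 reported HIF targets gave no common direction, with 13 falls, 10 rises and 11 without a call, and a median of -0.05. Of all tested genes 22.0% were called lower and 22.2% higher. The secreted glycoprotein gene STC2 (-1.34, SE 0.07), the mitochondrial protein gene FAM162A (-0.46, SE 0.05) and the liprin gene PPFIA4 (-1.09, SE 0.20) fell. ERO1A, an oxidase of the endoplasmic reticulum, was at 142 ± 1.77 CPM in knockdown and 104 ± 2.15 CPM in control libraries (0.45, SE 0.03). IGFBP3, which binds insulin-like growth factors, rose as well (0.44, SE 0.03).

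Regulators of HIF were also divided, with 6 falls, 6 rises and 2 without a call among 14 tested of 15, and a median of -0.08. HIF1AN, the asparagine hydroxylase that blocks coactivator binding by HIF alpha, was at 41.4 ± 0.723 CPM in knockdown and 61.5 ± 2.82 CPM in control libraries (-0.57, SE 0.04, adjusted p = 3.0e-17). The VHL ligase subunits ELOC (-0.25, SE 0.03) and ELOB (-0.22, SE 0.03) fell too. The beta subunit gene ARNT2 (0.40, SE 0.07), the HIF competitor CITED2 (0.21, SE 0.06) and MYC (0.10, SE 0.04, adjusted p = 0.020) rose. The MYC call was lost without control replicate 1, without control replicate 3 and without knockdown replicate 3 (adjusted p 0.0843 to 0.117, with 5.3e-05 to 0.117 over all alternatives).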

How the data were processed

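Per the labels' protocols, DNase-treated total RNA of A549 cells was captured on mRNA beads, made into directional libraries and sequenced in paired 150 nt reads. The authors deposited whole-number read counts per gene and FPKM values (scaled by gene length and library depth, rounded) with 1 column per library, assigned by titles. The submitters' processing notes name HISAT2, DESeq2 and GRCh38. The sources used here give no counting tool, annotation or strand setting.

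Counts were filtered with filterByExpr (minimum count 10), scaled with TMM and tested with edgeR 4.0.16 (limma 3.58.1, R 4.3.3) by its robust quasi-likelihood test, with Benjamini-Hochberg adjustment over 17089 genes and calls at an adjusted p under 0.05. All adjusted p-values in the text come from it unless another setting is named. SE is the absolute log2 fold change divided by the root of the F statistic. FPKM served for levels between genes. The fit was also run on simulated counts with the same variation between libraries in every gene and no replicate effect. That run does not test the fit where variation differs between genes or replicates share an effect. Replicate pairs had a chi-square per degree of freedom of 1.78 to 2.88, so each library counted once. The common coefficient of variation between libraries of a group was 2.61%.

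Identifiers were matched to GENCODE 29 (29556 of 30493, 96.9%, and all 35 members), and promoters to RefSeq (GRCh38.p14), which had entries for 32 members. Members and pathway lists were chosen with earlier results of these data known. All members are named; those called with a log2 fold change of at least 0.3 in size, HIF1A, EPAS1 and GAPDH get library values. Of each pathway list, up to 3 called rises and 3 falls with the smallest adjusted p are named, apart from a few genes not reported here. Members outside that rule are shown by library where a pair is compared. Alternatives were RLE and total-count scaling, no filter, a filter of 1 CPM in 3 libraries, limma-voom, DESeq2 1.42.0, a replicate block, limma-trend on FPKM (pseudocount 1 or 0.1), each library left out in turn and, chosen after seeing the data, overlapping genes summed.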

Additional observations from a re-analysis of the deposited data

How the results depend on the processing

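Of the 35 members, 23 kept their call and direction under all 16 alternatives (19 lower, 3 higher, 1 not called). Total-count scaling, log2(FPKM + 1) and log2(FPKM + 0.1), given here in that order, moved the balance: 69.5%, 77.3% and 77.2% of calls over all genes were higher, against 50.3%, and 2407, 1552 and 1554 genes were lower, against 3759. The median of all genes shifted to 0.08, 0.05 and 0.10. The enzyme median became -0.30, -0.25 and -0.27, and that of the other hypoxia targets -0.12, -0.057 and -0.0912. With each of these 3 settings 6 hypoxia targets were lower, against 10, and 5, 6 and 6 members were higher, against 3. SLC2A1 turned to 0.0043 and 0.0044 with the FPKM settings, and BNIP3L to 0.0075, 0.0393 and 0.0404. Leaving out 1 library gave 23 to 25 lower members and an ENO2 to ENO1 difference of -0.044 to 0.004. KDM3A was called higher with the replicate block (0.10), which changed no other member call (25 lower, 4 higher) and gave 3844 lower and 3821 higher genes. Same-numbered libraries had correlations of 0.068, 0.037 and 0.146, against -0.11 to 0.046 for libraries of different number. On the second main axis of variation (principal component 2), knockdown replicate 3 (-21.3) and control replicate 3 (-10.3) lay below the other libraries (2.81 to 15.8). The main fit did not pair the samples by number, and whether same-numbered libraries share an effect was not tested. The cause of the changes between settings was not tested.

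HK2 and ANKRD37 rest on few counts and change call when 1 library is left out, and 3 libraries a group cannot give an exact p below 0.10. FPKM keeps the authors' own scaling. The CPM of ALDOA and LDHB cover only the reads assigned to these gene models.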
